A study of Rattus norvegicus with 8 samples.

Results

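The 9 genes described here encode the xenobiotic sensors and the main lipid, steroid and hormone receptors of the liver: Ahr, Arnt, Nr1i2, Nr1i3, Rxra, Hnf4a, Nr1h3, Nr3c1 and Esr1. They were listed by name, and every array probe whose accession maps to one of these rat symbols was taken. All 9 had a probe, 11 probes in all, out of 15168 named genes with a probe on the array. Of the 9, 6 were bright enough in liver to be tested (Ahr, Nr1i2, Nr1i3, Rxra, Hnf4a and Nr1h3). Arnt, Nr3c1 and Esr1 were not well above background in liver on any of the 8 arrays.

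Livers came from male Sprague-Dawley rats on postnatal day 21, born to dams dosed from gestation day 0 to postnatal day 20. Control dams received corn oil, the vehicle. Mixture dams (0.5MAhR) received organochlorine pesticides, polychlorinated biphenyls (PCBs) and methyl mercury at 0.5 mg/kg/day, plus AhR agonists (non-ortho PCBs, dibenzodioxins and dibenzofurans) worth 6.3 ng/kg/day of dioxin toxic equivalents. Pups stayed with their own mothers, RNA from 2 pups was pooled for each array, and each group had 4 arrays from 8 pups. The agents were given together, so no difference below can be assigned to 1 of them. No source used here gives the litters, so pools of 1 group may share one, and the spread behind each p-value is that between pools.

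The AhR waits in the cytoplasm in a complex with HSP90, moves to the nucleus when it binds dioxins or other planar compounds, and pairs there with ARNT to switch on genes such as Cyp1a1. The pregnane X receptor PXR (Nr1i2) and the constitutive androstane receptor CAR (Nr1i3) sense drugs, steroids and bile acids, pair with the retinoid X receptor alpha (Rxra), and drive Cyp3a, Cyp2b and Cyp2c enzymes. The liver X receptor alpha (Nr1h3) senses oxysterols, HNF4A maintains hepatocyte identity, Nr3c1 is the glucocorticoid receptor and Esr1 the oestrogen receptor alpha. These proteins are switched mainly by ligand binding and by movement within the cell, which a transcript array does not measure.

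Each array was hybridised with liver RNA in Cy5 and a universal rat reference RNA from 14 cell lines in Cy3. The measure is the log2 ratio of liver over reference, and a group difference is the mixture mean minus the control mean of that ratio. All 8 arrays had the same dye orientation, so a ratio against the reference also carries dye bias and is given with no test. The groups share that bias.

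The promoter windows below show the DNA letters that these receptors are known to read, for the receptor gene PXR and for a textbook target of PXR and of the AhR. Each is the 250 bases before the RefSeq gene start, build GRCr8, printed 5′ to 3′ on the gene's strand. Capitals mark AGTTCA (a receptor half-site, shown as TGAACT where it lies on the other strand) in Nr1i2 and Cyp3a23-3a1, and GCGTG (the core letters of the AhR and ARNT site) in Ahrr.
Nr1i2, chr11:75965467-75965716, plus strand: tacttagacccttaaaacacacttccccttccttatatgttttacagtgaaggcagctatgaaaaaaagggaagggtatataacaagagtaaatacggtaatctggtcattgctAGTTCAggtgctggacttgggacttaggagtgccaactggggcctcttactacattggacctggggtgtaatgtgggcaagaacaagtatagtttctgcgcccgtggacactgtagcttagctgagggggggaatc
Cyp3a23-3a1, chr12:14398804-14399053, minus strand: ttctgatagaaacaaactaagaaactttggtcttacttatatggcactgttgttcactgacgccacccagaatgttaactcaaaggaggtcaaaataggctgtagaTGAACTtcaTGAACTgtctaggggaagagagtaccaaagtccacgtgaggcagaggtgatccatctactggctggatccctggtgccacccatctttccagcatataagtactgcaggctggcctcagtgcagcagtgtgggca
Ahrr, chr1:30821969-30822218, plus strand: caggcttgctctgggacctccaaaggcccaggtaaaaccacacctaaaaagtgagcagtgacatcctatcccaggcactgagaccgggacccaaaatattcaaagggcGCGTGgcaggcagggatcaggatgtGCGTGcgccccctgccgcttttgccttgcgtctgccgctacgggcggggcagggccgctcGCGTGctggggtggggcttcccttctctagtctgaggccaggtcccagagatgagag

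AGTTCA was found once in the Nr1i2 window, 136 bases before the start. In Cyp3a23-3a1, which encodes a steroid- and drug-oxidising P450, it was found at 144 and 135 bases on the other strand, as a direct repeat with 3 bases between. That repeat, searched on both strands, was in 2 of 33469 windows, those of Cyp3a23-3a1 and Cyp3a2, or 0.00598%. Ahrr, which encodes the AhR repressor, held GCGTG at 142, 117 and 57 bases. GCGTG alone was in 25.9% of windows, AGTTCA in 12.2% and AGGTCA, another half-site, in 14.1%, so a single match is common. Among the windows of the 9 receptor genes, GCGTG was also in that of Arnt and in the second of Nr3c1. AGTTCA was also in Nr1h3 and in the first window of Nr3c1, and AGGTCA was in none. A match describes the letters and is no evidence of binding.

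Between 42.9% and 49.2% of spots per array were well above background in liver, and 64.3% to 67.8% in the reference. No spot was saturated. Of 10567 genes tested, 1 passed an adjusted p of 0.05 between the groups, or 0.00946% (limma, Benjamini-Hochberg). With slide column in the fit, 5 passed, or 0.0473%, all higher in the mixture group: Cyp1a1, Cyp2b2, Cyb5a, Ceacam4 and the unnamed probe A_64_P057526. The last 3 were picked for naming after their values were seen. Slide column is the first position number in each array's scan name, and each column held 2 arrays of each group. Over genes, r was 0.981 to 0.991 between arrays in one column and 0.938 to 0.962 between arrays in different columns. No source used here says what else differed between the columns.

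Detection in liver differed between the genes. Nr1i2, Nr1h3, Nr1i3 and Rxra were well above background on all 4 control and all 4 mixture arrays. Hnf4a was above background on 4 control and 3 mixture arrays. Ahr was above background on 1 control and 3 mixture arrays, so only its mixture arrays brought it past the filter. It has 2 spots per array, and 5 of 8 control spots and 7 of 8 mixture spots were above background, so the gene lay near the detection limit in both groups.

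Net liver signal, the median spot intensity less the local background, ran from 2440 to 3770 for Nr1i2 over the 8 arrays. For Nr1h3 it ran from 1860 to 3880. The brighter Nr1i3 probe gave 140 to 430. The local background had a median of 68 to 73 intensity units per array. Signals of Nr1i2 and Nr1h3 stood far above that level, and those of Nr1i3 above it. Rxra gave 49.2 to 150, from below that level to above it, though it was well above background on all 8 arrays. Hnf4a gave 22.2 to 52.2 and Ahr 17.2 to 50.8, both below that level. Probes differ in brightness at equal RNA, so these signals show how well each probe was measured and do not rank the transcripts.

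The 3 receptor genes left out of the test were dim in liver. Arnt, the obligate partner of the AhR, gave a net liver signal of -3.5 to 14 from 1 spot per array, and its reference signal was above background on 3 of 8 arrays. The 2 probes of Nr3c1 gave -3.75 to 3.5 and 7.75 to 18, and the second was above background in the reference on all 8 arrays. Esr1, averaged over 10 spots per array, gave 0.5 to 2.85. These values bound the signals of these probes and do not show that the transcripts were absent.

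**Figure D1:**
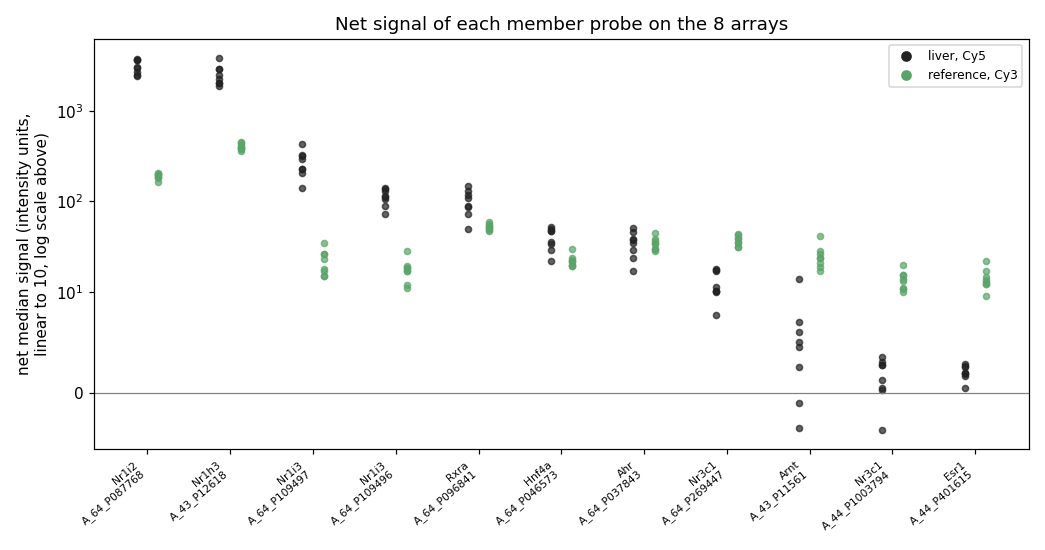
Net median signal of the 11 receptor probes on each of the 8 arrays, in intensity units (linear up to 10 and logarithmic above), with liver (Cy5) in black and the reference (Cy3) in green. Liver signals of Nr1i2 and Nr1h3 lie between 1860 and 3880, whereas those of Arnt, Nr3c1 and Esr1 lie below their reference signals.

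PXR had the highest ratio over the reference of the 4 genes whose reference signal was above background on at least 7 arrays (Nr1i2, Nr1h3, Rxra and Ahr). On control arrays 5 to 8 its log2 ratios were 5.10, 4.78, 5.12 and 5.05, and on mixture arrays 1 to 4 they were 4.80, 5.04, 4.78 and 4.96. The control mean was 5.01 ± 0.16 (SD, n = 4), or 32.2 times the reference, higher than the ratio of 98.1% of tested genes. Liver X receptor alpha followed with a control mean of 3.71 ± 0.21 (SD, n = 4), or 13.1 times the reference, above 96.4% of tested genes. Rxra had 1.60 ± 0.35 (SD, n = 4), or 3.03 times the reference, above 89% of tested genes.

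For Nr1i3 and Hnf4a the reference was the dim side. The brighter Nr1i3 probe was above background in the reference on 1 array of 8 and Hnf4a on none, so their control ratios, 3.33 ± 0.34 and 0.87 ± 0.27 (SD, n = 4), have no measured denominator and no fold over the reference is given. Ahr had 0.64 ± 0.18 (SD, n = 4) in control livers, with its reference above background on 7 arrays and its own liver signal on 1. The offset of 50 intensity units added in background correction pulls ratios of dim probes toward 0. On the processed signals of the scanner software, which have no such offset, the control ratio was 2.09 for Ahr, 3.71 for Hnf4a, 3.03 for Rxra, 5.50 for Nr1i2 and 6.97 for Nr1i3, on the log2 scale. Median centring in place of loess gave 4.0 for Nr1i2, 2.71 for Nr1h3, 2.55 for Nr1i3 and 0.964 for Rxra. The size of a ratio over the reference thus depended on the processing, and the order of Nr1i2 and Nr1i3 turned with it. For Ahr, net liver and net reference signals were alike, at 17.2 to 50.8 and 28.5 to 44.2 over the 8 arrays.

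No receptor gene differed between mixture and control livers past the threshold. Each gene is read here by its brightest probe. None of the 6 passed an adjusted p of 0.05 with or without slide column in the fit, none had an unadjusted p under 0.05 in either fit, and in none did the groups separate. Over all tested genes, 1.53% had an unadjusted p under 0.05 without slide column and 6.35% with it, and 1.32% had groups that did not overlap. The median difference of the 6 was 0.0105 against -0.00775 over all tested genes, with 3 higher and 3 lower. The median size of the difference was 0.0454 for the 6 and 0.0656 over all genes, and both are smaller than the median standard errors, 0.157 and 0.149.

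For the AhR itself, the control values on arrays 5 to 8 were 0.83, 0.62, 0.41 and 0.72. The mixture values on arrays 1 to 4 were 0.31, 0.76, 0.88 and 0.96. The mixture group held both the lowest and the highest array, so the groups overlapped across their full range. In log2 units the mixture group differed by 0.09 (SE 0.16, limma adjusted p = 0.9999). With slide column fitted, the 95% interval was -0.24 to 0.41, that is a mixture over control ratio between 0.848 and 1.33. It was 0.24 within slide column 1 and -0.07 within slide column 2.

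PXR had a difference of -0.11 (SE 0.11, limma adjusted p = 0.9999). With slide column fitted, the interval was -0.28 to 0.05, a ratio of 0.822 to 1.04. It was -0.10 in column 1 and -0.12 in column 2. It stayed negative under all 22 other settings, between -0.193 and -0.0746, with no limma adjusted p under 0.877. Some of these settings could not move it: the other filters, the blocks, the other eBayes options and the mean over its 1 probe.

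CAR was read by 2 probes, which disagreed in the size of the difference. On the brighter probe, control arrays 5 to 8 gave 3.75, 3.08, 3.45 and 3.03, and mixture arrays 1 to 4 gave 2.63, 3.64, 3.01 and 3.86. Its difference was -0.04 (SE 0.28), with an interval of -0.32 to 0.23 when slide column was fitted. The mixture arrays spread more widely (SD 0.57) than the control arrays (SD 0.34), and the signs opposed at 0.15 in column 1 and -0.24 in column 2.

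On the dimmer probe, control arrays 5 to 8 gave 2.24, 2.36, 2.55 and 2.01, and mixture arrays 1 to 4 gave 1.68, 1.89, 1.96 and 2.27. The difference was -0.34 (SE 0.15, limma adjusted p = 0.9999 over all probes), with limma's unadjusted p at 0.045. It was -0.32 in column 1 and -0.36 in column 2, and with slide column fitted the 95% interval was -0.60 to -0.08, limma's unadjusted p was 0.0146 and its adjusted p 0.851. The groups overlapped, since mixture array 4 lay above control arrays 5 and 8. Both probes carry the same accession and neither gave a call, so the size of any difference in CAR transcript rests on the probe chosen. The brighter probe has 1 spot per array.

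RXR alpha, the shared partner of PXR, CAR and the liver X receptor, gave 1.84, 1.29, 1.97 and 1.31 on control arrays 5 to 8. Mixture arrays 1 to 4 gave 1.02, 1.95, 1.28 and 2.09. In both groups 1 pair of arrays was high and the other pair low, and these pairs were the slide columns. The group difference was -0.02 (SE 0.27 without and 0.09 with slide column), and the interval with slide column fitted was -0.22 to 0.18. Fitting slide column thus cut the standard error while leaving the difference where it was.

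HNF4A gave 0.86, 1.08, 0.49 and 1.06 on control arrays 5 to 8 and 0.68, 0.90, 1.05 and 1.02 on mixture arrays 1 to 4. The control group held both the highest and the lowest array. The difference was 0.04 (SE 0.15), with an interval of -0.25 to 0.33 when slide column was fitted, and it was 0.28 in column 1 and -0.21 in column 2. Liver X receptor alpha gave 3.60, 3.91, 3.47 and 3.86 on control arrays and 3.86, 3.54, 4.0 and 3.64 on mixture arrays. Its difference was 0.05 in each column and overall (SE 0.07 with slide column fitted), with an interval of -0.10 to 0.20. That interval, a ratio of 0.93 to 1.15, was the narrowest of the 6.

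**Figure D2:**
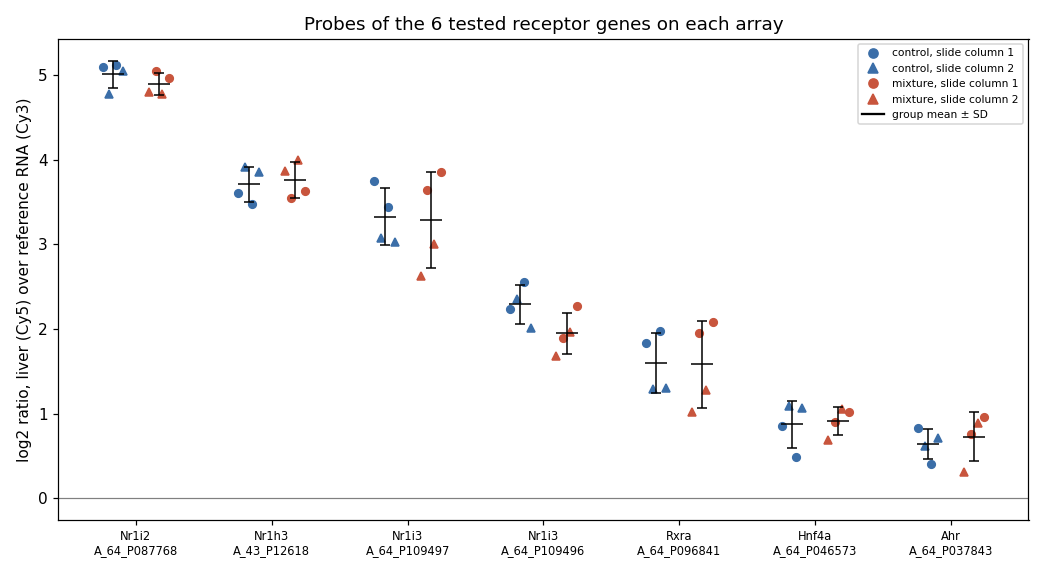
Log2 ratio of liver over reference for the 7 probes of the 6 tested receptor genes on each array, controls in blue and mixture in red, with circles for slide column 1, triangles for slide column 2 and bars for group mean ± SD (n = 4). The groups overlap for every probe, while for Rxra and the brighter Nr1i3 probe the circles lie above the triangles in both groups.

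On their brightest probes, the 6 genes differed more between slide columns than between the groups. The dimmer Nr1i3 probe did not, at -0.23 between columns and -0.34 between groups. Column 2 minus column 1, with group in the same fit, passed the threshold for 4 of the 6 genes. Over all tested genes, 28.1% were higher in column 2 and 28.8% lower. The difference was -0.74 for Nr1i3 (SE 0.12, limma adjusted p = 0.000744) and -0.74 for Rxra (SE 0.09, limma adjusted p = 0.000119). It was 0.34 for Nr1h3 (SE 0.07, limma adjusted p = 0.00202) and -0.20 for Nr1i2 (SE 0.07, limma adjusted p = 0.0406). Ahr at -0.11 and Hnf4a at 0.15 did not pass. The median size over the 6 was 0.274, close to the 0.284 of all tested genes, so these genes followed the arrays at large. The processing changed some of these values. On the processed signals of the scanner software the sign turned for Nr1i2 (0.0307) and Nr1i3 (0.614), Nr1h3 no longer passed (0.00108), and Rxra kept its sign and call (-0.56, limma adjusted p = 0.0359). The Nr1i2 call was also lost with median centring (limma adjusted p = 0.493) and in the deposited table's values (0.0551).

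Mixture array 1 was the lowest of the 4 mixture arrays for Ahr, both Nr1i3 probes, Rxra and Hnf4a. It also had the smallest share of spots above background in liver, 42.9%, and the part of that share in these values was not tested. With mixture array 1 left out and no slide column fitted, the difference became 0.227 for Ahr, 0.176 for Nr1i3, 0.17 for Rxra and 0.115 for Hnf4a. Nr1i3, read by its brighter probe only, and Rxra thus turned sign. None of these genes passed the threshold with this or any other array left out. In the reference channel alone, the group differences of the 6 genes lay between -0.03 and 0.06 and none passed, against 0.00946% of all tested genes. In Cy5 alone they ran from -0.15 for Nr1i2 to 0.12 for Nr1h3.

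The proteins that hold or join the AhR showed no call. Of 12 genes of the AhR complex and its regulators, Ahr and Arnt included, 11 had a probe, 8 were tested and none passed in either fit or had an unadjusted p under 0.05 in limma. Of those 8, 3 were higher and 5 lower, with a median of -0.0552 and a range from -0.182 to 0.0863. Ptges3, the p23 co-chaperone of HSP90, differed by -0.12. Arnt2, a close relative of Arnt, was well above background on every array with a control log2 ratio of 1.04, and it differed by 0.02 (SE 0.11). Ahrr was below background in liver on all 8 arrays and above it in the reference on all 8. Bmal1, a clock protein of the same family as ARNT, differed by -0.18.

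Among AhR target genes 1 rose past the threshold. Of 10 target genes 7 were tested, 6 higher and 1 lower, with a median of 0.301. An unadjusted p under 0.05 in limma was found for 3 without slide column and 4 with it. Over all tested genes these shares were 1.53% and 6.35%. Cyp1a1, which encodes the classic dioxin-induced P450, rose by 4.04 (SE 0.33, limma adjusted p = 0.00923), or 16.4-fold, and no other gene passed in the fit without slide column. Control arrays 5 to 8 read 1.02, 0.30, 0.71 and 1.55, and mixture arrays 1 to 4 read 4.15, 4.84, 5.27 and 5.47. The groups lay far apart. The fold is approximate, since 1 of the 4 control arrays was not well above background in liver and no array was in the reference, and in Cy5 alone the difference was 3.09. The call was lost when control array 5 or 7 or mixture array 2 or 3 was left out. It was also lost with slide row as a block, in slide column 2 alone and on the processed signals of the scanner software. Nqo1, a quinone reductase, differed by 0.90 (SE 0.17 and limma adjusted p = 0.191, both with slide column fitted). Cyp1a2, another P450 of the family, differed by 0.12 (SE 0.15) in the ratio but by 1.54 in Cy5 alone. The reference signal of its probe also differed, by 1.38 in Cy3 alone, and it was the 1 gene to pass there. Its ratio thus does not give the size of the difference in liver signal.

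Among target genes of CAR and PXR, Cyp2b2 rose in the fit with slide column. Of 22 genes 17 were tested, 13 higher and 4 lower, with a median of 0.447, and 8 had groups that did not overlap. At limma's unadjusted p under 0.05 were 9 without slide column and 10 with it. Over all tested genes these shares were 1.32% without overlap and 1.53% and 6.35% at that p. Cyp2b1, of the same list, had no named probe. Cyp2b2, a CAR-driven P450 in rat liver, gave 5.13, 6.02, 4.15 and 5.03 on control arrays and 7.36, 6.55, 7.54 and 7.01 on mixture arrays. The lowest mixture array was above the highest control array. Its difference of 2.04 (SE 0.37) did not pass without slide column (limma adjusted p = 0.9999) and passed with it (limma adjusted p = 0.0296). Its Cy3 signal alone differed by 0.31 (limma adjusted p = 0.132). Cyp2c7, a P450 for retinoids and steroids, differed by 1.63 (SE 0.25 and limma adjusted p = 0.13, both with slide column fitted). Its Cy3 signal alone differed by 0.40. Cyp3a23-3a1, whose promoter repeat is shown above, differed by 0.08 (SE 0.14), from a control log2 ratio of 6.74. Its Cy3 signal was above background on no array. Genes of 1 family can share probe sequence, so the Cyp2b, Cyp2c and Cyp3a values may include paralogs.

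**Figure D3:**
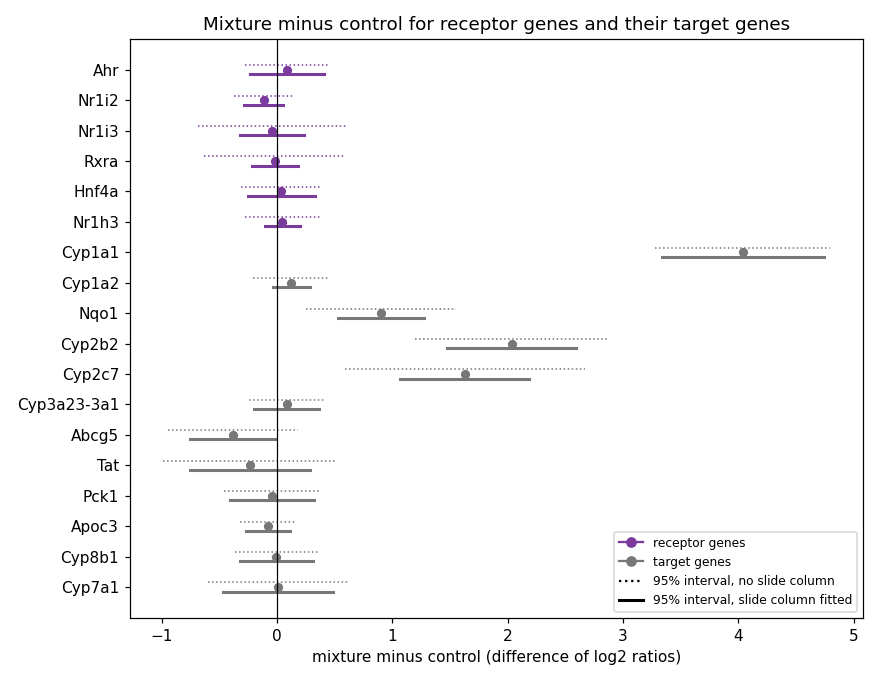
Mixture minus control difference of log2 ratios for the 6 tested receptor genes (purple) and 12 target genes (grey), with dotted 95% intervals from the fit without slide column and solid ones from the fit with it. Each receptor gene is drawn by its brightest probe, and these intervals all span 0 and stay within 1 log2 unit. Cyp1a1, Cyp2b2, Cyp2c7 and Nqo1 lie to the right of 0. The dimmer Nr1i3 probe, whose intervals lay below 0, is not drawn.

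The other nuclear receptors, including the partners of RXR, gave no call. Of 39 genes 33 had a probe and 19 were tested, 10 higher and 9 lower, with a median of 0.00421. At an unadjusted p under 0.05 in limma were 0 without slide column and 2 with it, against 1.53% and 6.35% of all tested genes. The bile acid receptor Nr1h4, with a control log2 ratio of 5.07, differed by 0.14 (SE 0.32), and the small heterodimer partner Nr0b2, a repressor of bile acid synthesis, by 0.03 (SE 0.30). The fatty acid sensor Ppara differed by 0.29 (SE 0.31), and Nr5a2, a driver of bile acid genes, by 0.01 (SE 0.21). Rxrb, a relative of Rxra, differed by -0.07 and Nr1h2, the liver X receptor beta, by -0.02. The 2 with the smallest p were Esrra at -0.24 and the clock repressor Nr1d1 at 0.36 (SE 0.20), the latter above background on 1 control and 3 mixture arrays.

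Chaperones and coregulators of the receptors were mostly on the low side, with 10 of 12 tested genes lower, a median of -0.046 and no call. With slide column fitted, 1 was at limma's unadjusted p under 0.05, against 6.35% of all tested genes. The methyltransferase Prmt1 had a difference of -0.15. Among liver transcription factors outside the receptor family, 7 of 10 tested genes were lower and none passed, also before adjustment in limma, with a median of -0.0383. Cebpa, a hepatocyte factor, had a difference of 0.0043 and Foxa2 one of -0.10 that was 0.29 in column 1 and -0.48 in column 2. Onecut1 had -0.45 and Xbp1 0.12. Over all tested genes, 5620 were lower and 4947 higher.

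The list of liver X receptor targets, which includes Nr1h3 itself, gave no call among 9 tested of 12, with 6 higher and 3 lower. Its median of 0.0477 is the difference of Nr1h3, so it adds nothing apart from the receptor gene's own value. In limma's fit with slide column 1 of the 9 was under 0.05 before adjustment, against 6.35% of all tested genes. The sterol exporter Abcg5 differed by -0.38 (SE 0.25), and its partner Abcg8 was below background on all arrays. Lpcat3, a phospholipid-remodelling enzyme, differed by 0.14. Srebf1 had no named probe. HNF4A targets gave no call among 15 tested of 16, with 12 lower and a median of -0.112, although the column medians were 0.000538 and -0.247. Before adjustment 1 was under 0.05 in limma without slide column and 2 with it, against 1.53% and 6.35% of all tested genes. Apoc3, a lipoprotein component, differed by -0.08 (SE 0.11), and the bile acid enzymes Cyp7a1 and Cyp8b1 by 0.01 and -0.0071. Apoa2 differed by 0.44 (SE 0.15) without overlap of the groups. Its liver signal differed by 1.20 in Cy5 alone, but its reference signal also differed, by 0.70 in Cy3 alone. Fgb, a fibrinogen chain, differed by -0.29.

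Glucocorticoid receptor targets leaned low with no call. Of 13 tested of 16, 12 were lower, with a median of -0.235, which was -0.111 in column 1 and -0.235 in column 2. Before adjustment 3 were under 0.05 in limma with slide column and 0 without it, against 6.35% and 1.53% of all tested genes. Tat, which breaks down tyrosine, differed by -0.23 (SE 0.33) and Pck1, of gluconeogenesis, by -0.04 (SE 0.18). Fkbp5, a co-chaperone of the receptor, differed by -0.17 (SE 0.14). Angptl4, a lipase inhibitor, had -0.30 with every mixture array below every control array, and Cps1, of the urea cycle, had -0.35. Targets of oestrogen receptor alpha in rat liver gave no call among 6 tested of 10, with 3 higher and 3 lower and a median of -0.0133. With slide column, 2 were under 0.05 before adjustment in limma, against 6.35% of all tested genes. Igf1, the liver-made growth factor, differed by 0.07 (SE 0.11), Agt by -0.29 and Serpina6, which encodes corticosteroid-binding globulin, by 0.47 (SE 0.34). Some genes stand in more than 1 of these lists.

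Markers of the liver's cell types moved a little beside these differences, and in bulk tissue fewer cells of a type and less RNA per cell cannot be told apart. All 8 hepatocyte markers were lower in the mixture group, with a median of -0.124, none past the threshold. In limma with slide column fitted, 2 of the 8 were under 0.05 before adjustment, against 6.35% of all tested genes. Apoa1, Ttr, Tf and Serpina1 among the 8 were also counted as HNF4A targets above, and Cps1 as a glucocorticoid receptor target. The mean log2 ratio of the 8 was 6.59 to 6.64 on control arrays and 6.31 to 6.59 on mixture arrays. The summed net signal of the 8 was 793000 to 901000 and 684000 to 967000. Alb read 8.92 in control and 8.82 in mixture livers on the log2 scale, so the labelled tissue was borne out by its markers. Of 8 Kupffer cell and macrophage markers, 7 were higher, with a median of 0.141, a mean log2 ratio of 2.55 to 2.93 on control and 2.66 to 3.15 on mixture arrays, and none past the threshold. Their summed net signal was 5650 to 8640 and 5830 to 12700, and 1 of them was under 0.05 before adjustment in limma with slide column fitted. Of the lymphocyte markers, Cd3e and Cd8a were among those below background, and the medians of the other lists lay between -0.0307 and 0.207. The part of cell makeup in the receptor and target values was not tested.

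Across the 8 arrays, after the mean of each slide column was taken away, Hnf4a followed Nr1i3 (Pearson r = 0.95) and Ahr (0.918), and Ahr followed Nr1i3 (0.892). Nr1i2 followed none of the others, at -0.56 to 0.0119. Nr1h3 had r of 0.839 with Ahr, 0.688 with Hnf4a and 0.679 with Nr1i3. Rxra had 0.694 with Nr1i3, 0.621 with Hnf4a, 0.581 with Ahr and 0.282 with Nr1h3. These points share arrays and normalisation, and the 3 genes with the highest r among them include the dimmest 2. Of 6937 named genes, those most like Ahr were Scand1 (r = 0.988), Cdc14b and Stau1, and those most like Nr1i2 were Ptdss1 (0.978), Serpina11 and Zdhhc4. Pecam1 (0.983), Adgre5 and Rc3h2 were most like Nr1i3. F7 (0.969), Gja4 and Ddx27 were most like Rxra. Adipor1 (0.974) and Bgn were among those most like Hnf4a, and Apaf1 (0.974), Scamp3 and Iyd most like Nr1h3. With 8 arrays, between 23 and 54 genes had r over 0.9 with each receptor gene.

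**Figure D4:**
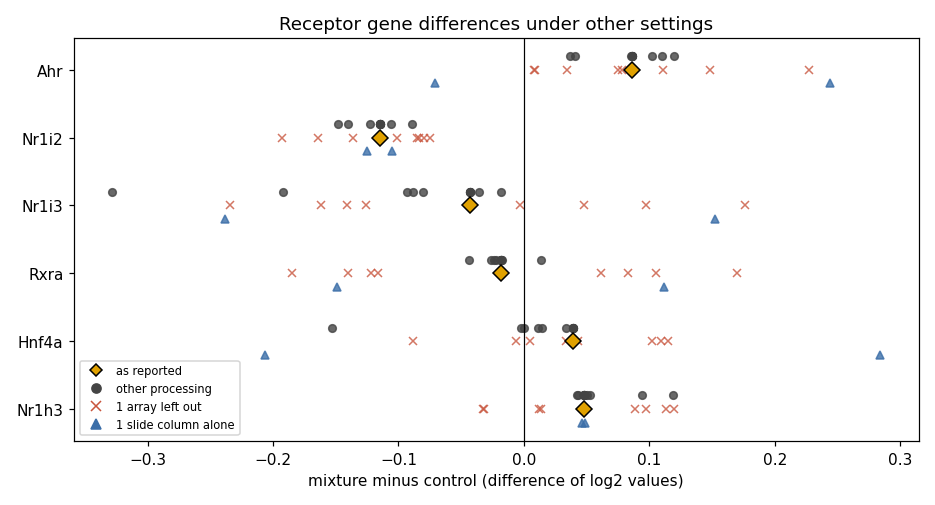
Mixture minus control difference of each tested receptor gene as reported (diamond), under other processing (grey points), with 1 array left out (crosses) and within 1 slide column (triangles), in log2 units. Nr1i2 stays below 0 throughout, and the other 5 genes have values on both sides of 0.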

How the data were processed

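Liver RNA from 4 control and 4 mixture pools was hybridised to two-colour Agilent arrays, with 200 ng of total RNA amplified per the labels' protocols. Spot intensity values were deposited by the authors as Agilent Feature Extraction 11.0.1.1 wrote them, per the file headers; the median foreground and background signals and the marks for background, saturation and outliers were used. The authors also deposited a table of log2 ratios of Cy5 over Cy3. It correlated with loess-normalised scanner ratios (r of 0.997 to 0.998 per array), with column medians from -0.0389 to -0.0326. No source used here says how it was centred, and it was used as an alternative.

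Analysis used limma 3.58.1 in R 4.3.3. Normexp with an offset of 50 corrected the background, arrays were normalised by loess with control spots given no weight, and the 771 to 956 spots per array marked as outliers were left out. Spots of a probe were averaged. Of 30367 probes, 18005 took a symbol from a RefSeq table of build GRCr8. A probe was tested if above background in Cy5 on at least 3 arrays of a group, which means that most of its spots were marked well above background there. This left 11407 probes and 10567 genes or unnamed probes, each read by its brightest probe. Groups were compared with lmFit and eBayes, two-sided, with Benjamini-Hochberg adjustment over all of them. Cy3 alone was compared after quantile normalisation. The fits were tested on simulated data. Precision is limited by the number of arrays.

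The receptor genes, 10 pathway lists and 8 marker lists were chosen with earlier results of these data known. Named genes were a fixed set of receptors, partners and targets, list genes past the threshold, otherwise the 2 of each list with the smallest p with slide column fitted, and the 3 genes most correlated with each tested receptor gene. Some genes that this rule took are not reported here. Alternatives were other background corrections, normalisations, filters and probes, slide column or row as a block, 1 column alone and 1 array left out. The other arrays of the study of 72 were not analysed here.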

Additional observations from a re-analysis of the deposited data

Results flagged for a closer look

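Of 88 groups of 4 arrays checked over 44 named genes, 4 held an array far from the other 3. The array's gap to its nearest neighbour, as a share of the group's range, was above Dixon's 95% critical value, which chance passes in about 1 of 20 groups. No receptor gene of the list was among them. The glucocorticoid target Tat read 1.61 on control array 6, against 2.86 to 3 on the other control arrays, on the log2 ratio scale. Agt, a target of oestrogen receptor alpha in rat liver, read 3.93 on the same array, against 4.15 to 4.2. The clock receptor Nr1d1 read 0.725 on control array 8, against 0.123 to 0.217, and 0.164 on mixture array 2, against 0.785 to 0.879.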

How the results depend on the processing

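No receptor gene passed the threshold under any alternative run, with slide column fitted or not. No paired analysis was possible because the groups share no replicate number, and only slide position (column or row) could be fitted as a block. Over the alternatives, 18 of 130 receptor differences turned sign, as did 8 of 48 with slide column fitted and 1 array left out, and none of these differences had passed. Among the 130, those from another fit or filter on the same values could not turn. Hnf4a became -0.00247 without background correction, -0.153 with processed signals and -0.206 in slide column 2 alone. Rxra became 0.014 with median centring and 0.112 in column 1 alone, Nr1i3 0.152 in column 1 alone and Ahr -0.0711 in column 2 alone. Nr1i3 turned sign under 4 of 22 settings, and was -0.328 with processed signals and -0.192 as the mean over its probes. With 1 array left out, Nr1i3 ran from -0.234 to 0.176, Rxra from -0.185 to 0.17, Hnf4a from -0.0882 to 0.115 and Nr1h3 from -0.0322 to 0.12. With slide column fitted and 1 array left out, Nr1i3 ran from -0.143 to 0.0725, Rxra from -0.0713 to 0.0604, Ahr from -0.0287 to 0.233 and Hnf4a from -0.0828 to 0.161. Ahr and Hnf4a have no value where a probe had to be above background on all 8 arrays.

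The count of genes past the threshold, 1 as reported, was 0 with processed signals (600 genes at an unadjusted p under 0.05 in limma), with the filter on all 8 arrays (128), with slide row as a block (76) and in column 2 alone (591). It was 5 with slide column as a block and 2 in column 1 alone. With 1 array left out it was 0 to 2 (unadjusted p under 0.05 for 117 to 179 genes), with 0 without control array 5 or 7 or mixture array 2 or 3 and 2 without mixture array 1. With slide column fitted the count of 5 became 1 to 11, with 1 without control array 5 or mixture array 3 or 4, 2 without control array 6 or 8 or mixture array 1, 8 without control array 7 and 11 without mixture array 2. Genes that differed between slide columns numbered 6015 as reported, 3747 with median centring and 635 with processed signals, and 49.3%, 58.5% and 39.1% of them were higher in column 2. The column difference of Nr1i2 became 0.0307 and that of Nr1i3 0.614 with processed signals. The cause of these changes was not tested. Liver signal near background limits Ahr and Hnf4a most.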
